A study of Mus musculus with 6 samples.

Results

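Krüppel-like factors (KLFs) are zinc-finger transcription factors that bind GC-rich and CACCC-type boxes in promoters and enhancers. Some members, such as Klf2, Klf4, Klf6 and Klf7, act largely as activators, although Klf4 also represses. Klf3 and Klf12 recruit the corepressor CtBP, and Klf9, Klf10, Klf13 and Klf16 can recruit the corepressor Sin3a. In macrophages Klf2 and Klf4 are known as brakes on inflammatory activation, and Klf6 as a factor that favours it.

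Open chromatin at 10 of these genes was examined in microglia, the resident macrophages of the brain. A genotype-specific ATAC-seq peak was counted for a gene when its midpoint lay inside the gene, or when an end of that gene was the nearest end of any protein-coding gene and lay within 100 kb. By this rule 24 of the 12105 listed peaks belonged to the 10 KLF genes, 17 of the 8615 peaks specific to the knockout and 7 of the 3490 specific to the control. ATAC-seq marks open chromatin through insertion of sequencing adapters by the Tn5 transposase.

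The 3 knockout libraries (cKO) came from Mir137loxP/loxP;Tmem119-CreERT2 mice and the 3 control libraries (cWT) from Mir137+/+;Tmem119-CreERT2 mice, all C57BL/6J and labelled as 8 weeks old. Controls therefore carried CreERT2 as well, a recombinase that tamoxifen activates and that is driven here by the microglial gene Tmem119. Mice of both genotypes received tamoxifen on 7 consecutive days, begun at 7 to 8 weeks of age. Each library used about 50000 sorted microglia, and the series states n = 4 mice but does not say which animals gave which library. The lists hold no value per library, so the spread between replicates and the sequencing depth are unknown, and the intervals below cover counting error only. Over all 21883 protein-coding genes, 23.8% had at least 1 cKO-specific peak and 12.3% at least 1 cWT-specific peak. Of 12 genes that mark microglia, 8 had a cKO-specific peak and 2 a cWT-specific peak. Among markers of other cells, cKO-specific peaks ranged from 1 of 6 lymphocyte genes to 4 of 6 astrocyte and 4 of 6 endothelial genes. In these sets 0, 2 and 2 genes, respectively, had a cWT-specific peak. The stretch in which a peak would count for a gene also differed. Its median was 16.3 kb for lymphocyte, 146.2 kb for astrocyte, 127.5 kb for endothelial and 55.5 kb for microglial genes. The part that other cell types had in the peaks at KLF genes was not tested.

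The gene removed in the knockout encodes the following mature microRNAs (RefSeq, GRCm38.p6, chromosome 3, plus strand), shown because they define the comparison. Capitals mark the seed, bases 2 to 8, the stretch with which a microRNA pairs to its targets.
mmu-miR-137-5p: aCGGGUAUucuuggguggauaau
mmu-miR-137-3p: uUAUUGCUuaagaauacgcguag

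At the KLF genes the specific peaks almost all lay away from promoters, and this was not compared with the whole lists. The RefSeq table held a promoter window, running from 250 bases before to 50 bases after a gene's start, for 8 of the 10 genes (not Klf10 and Klf16), and none of these 8 windows met a listed peak. The only sequence held in the tables for a listed KLF peak is a stretch at the upstream end of Klf12. It lies in the cKO-specific peak at chr14:100285164-100285666 and in the promoter window of Gm41231, a long noncoding RNA gene that begins beside that end. The stretch of 194 bases (chr14:100285473-100285666, GRCm38.p6, plus strand) is printed first, with capitals on its single GC box. The 250 bases before the starts of Klf4 (chr4:55532476-55532725, minus strand) and Klf9 (chr19:23140976-23141225, plus strand) follow. They are shown because Klf4 carried no listed peak and Klf9 was the one KLF gene of the 10 with a cWT-specific peak alone, and capitals mark matches to the KLF and Sp box.
Klf12 peak stretch: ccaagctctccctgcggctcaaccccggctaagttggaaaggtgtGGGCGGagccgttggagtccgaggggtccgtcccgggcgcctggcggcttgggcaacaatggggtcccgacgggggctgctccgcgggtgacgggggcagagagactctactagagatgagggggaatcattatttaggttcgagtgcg
Klf4 promoter: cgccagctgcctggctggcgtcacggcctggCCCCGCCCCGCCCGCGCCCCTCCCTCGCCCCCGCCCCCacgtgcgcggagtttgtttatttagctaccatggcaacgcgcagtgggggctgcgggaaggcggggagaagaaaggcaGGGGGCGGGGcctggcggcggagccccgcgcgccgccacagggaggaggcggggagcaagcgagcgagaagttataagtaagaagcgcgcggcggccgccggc
Klf9 promoter: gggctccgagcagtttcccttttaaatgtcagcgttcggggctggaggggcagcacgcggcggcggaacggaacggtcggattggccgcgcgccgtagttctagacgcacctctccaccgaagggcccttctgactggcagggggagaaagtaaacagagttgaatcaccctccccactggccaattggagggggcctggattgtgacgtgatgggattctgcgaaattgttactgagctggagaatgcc

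The KLF and Sp box was searched as CCNCNCCC on both strands, counting overlapping matches, and some matches also contain the GC box, searched as GGGCGG. In the 300-base windows 7 of the 8 KLF promoters held the KLF and Sp box, against 49.5% of all 32851 promoter windows, from 2 matches at Klf12 to 10 at Klf3. Klf4 had 9 matches in its window, Klf7 8, Klf13 5, Klf2 4 and Klf6 3, and Klf9 had 0. The GC box was present in 6 of the 8 windows, against 35.7% of all windows. GC content of the 250 bases before the start ran from 48% at Klf12 to 78.4% at Klf3, with a median of 52.4% over all windows. AP-1 (TGANTCA) was found in 1 of the 8 windows, against 7.81% of all windows. The remaining motifs, also searched on both strands, had no match in the 8 windows. Their shares over all windows were 16.3% for the thyroid hormone receptor motif (AGGTCA), 3.2% for PU.1 (GAGGAAGT), 1.79% for CRE (TGACGTCA) and 1.78% for RUNX (TGTGGTTT). For MEF2 (CTAAAAATA) the share was 0.517%, and for the seed matches of miR-137-3p (AGCAATA) and miR-137-5p (ATACCCG) 2.16% and 0.521%. The seed matches were searched in promoter DNA only and not in transcripts. Their absence therefore does not show whether a KLF gene is a target of miR-137. The Klf12 peak stretch held 1 GC box, and 23.6% of all promoter windows held at least 1 over the same bases. It had no match to the other motifs. Its GC content was 65% against a median of 51.6% at that place. These matches describe letters in the windows and are not binding data.

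Knockout-specific peaks were found at 7 of the 10 KLF genes and control-specific peaks at 4. Klf2, Klf6, Klf10 and Klf13 carried cKO-specific peaks alone, Klf9 a cWT-specific peak alone, Klf3, Klf7 and Klf12 peaks of both lists, and Klf4 and Klf16 none. The shares over all protein-coding genes were 23.8% and 12.3%. The KLF genes also had more room to collect peaks. The stretch in which a peak would count for a gene had a median of 153.9 kb at the KLF genes and 49.6 kb over all coding genes. Per 100 kb of that stretch the KLF genes held 0.899 cKO-specific and 0.370 cWT-specific peaks, against 0.437 and 0.176 over all coding genes. Without Klf12 the values were 0.787 and 0.236. These counts and densities are descriptions of the lists and carry no test. The KLF genes were also chosen with earlier results of these data known.

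The balance between the lists at KLF genes was measured with wide limits, because the peaks are few. Of the 24 KLF peaks 70.8% were cKO-specific (exact Clopper-Pearson 95% interval 48.9% to 87.4%), against 71.5% of the 11499 peaks counted for any coding gene. The share over all counted peaks thus lies inside the interval of the KLF peaks. Klf12 alone held 11 of the 24 peaks, and the other 9 genes together held 10 cKO-specific and 3 cWT-specific peaks, a cKO share of 76.9% (46.2% to 94.96%). Klf12 was also the one KLF gene with the 5 peaks needed for a test of its own balance. Its cKO share of 63.6% (30.8% to 89.1%) was not distinguishable from the share over all counted peaks (exact two-sided binomial test, p = 0.521, Benjamini-Hochberg adjusted p = 1.0 over 375 genes). Of those 375 genes 0.0% passed. The exact binomial test gave 12 of them an unadjusted p under 0.05, and the lowest adjusted p was 0.141. With few peaks per gene the test could seldom call one, so the lack of calls does not show a shared balance.

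**Figure D1:**
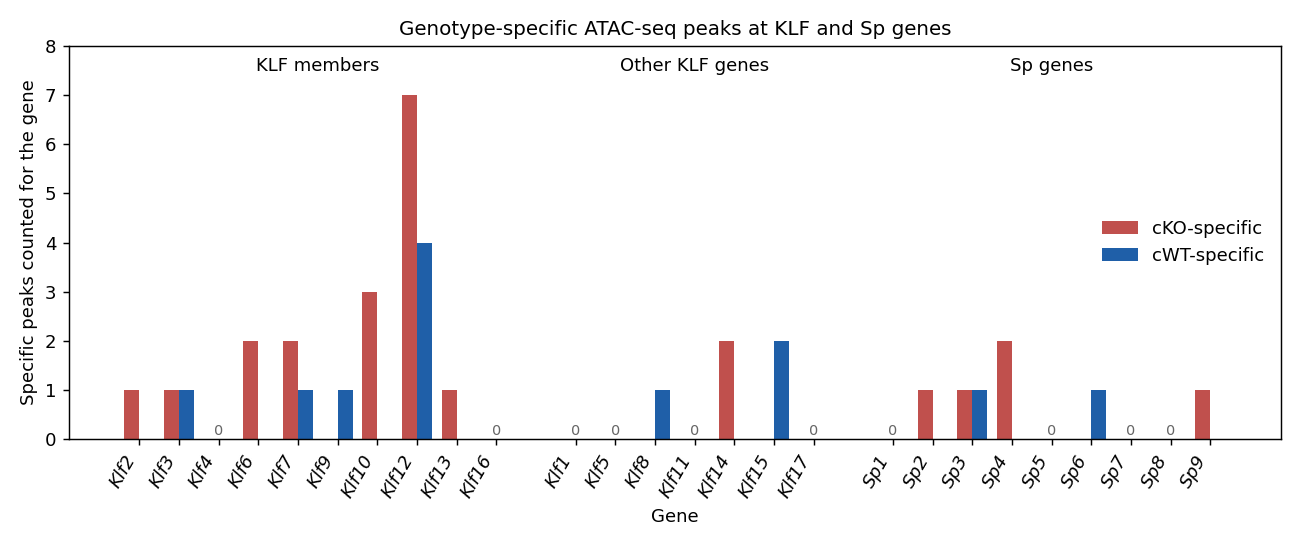
Number of cKO-specific (red) and cWT-specific (blue) peaks counted for each of the 10 KLF genes, the 7 other KLF genes and the 9 Sp genes, with 0 written where neither list holds one. Klf12 stands highest with 7 and 4 peaks, and the remaining genes have 3 or fewer in a list.

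Among the activator genes, Klf2, which restrains inflammatory gene expression in myeloid and endothelial cells, had 1 cKO-specific peak and no cWT-specific peak. That peak (chr8:72303648-72304001, 354 bp) lay 15.2 kb before the RefSeq start of Klf2, outside any annotated gene. Its signal was 19.7, higher than in 68.8% of the list by rank, and its authors' p-value 0.753. The nearest cWT-specific peak was 330.2 kb from the gene. The peak lay 284 bp from an end of the pseudogene Gm10282. A further cKO-specific peak 46.4 kb from Klf2 (chr8:72272491-72272780) lay nearer to Ap1m1 and was not counted.

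Klf4, a myeloid differentiation factor related to Klf2, had no peak within the limit. The nearest candidate was a cKO-specific peak at chr4:55664847-55665369, which had Klf4 as its nearest coding gene but lay 132.6 kb before its start, outside the 100 kb limit. Its signal of 30.6 ranked at the 94.6th percentile of the cKO list and its authors' p-value was 0.325. It thus had a higher signal than each of the 17 cKO-specific peaks inside the limit, whose highest was 27.1. The nearest cWT-specific peak was 283.9 kb from Klf4.

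Klf6, an immediate early gene of activated macrophages, had 2 cKO-specific peaks and no cWT-specific peak within 100 kb. The first (chr13:5804368-5804935, 568 bp) lay 56.8 kb before the start, with signal 13.7 and authors' p-value 0.442, the lowest p-value of the 24 KLF peaks. The second (chr13:5864247-5864481, 235 bp) lay inside the gene, 2.88 kb after the start, with signal 4.49 and p-value 0.931. The inner peak was among the weakest of the list, since only 2 of the 8615 cKO-specific peaks had a lower signal. The nearest cWT-specific peak was 255.7 kb away.

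Klf7, a regulator of neuronal and adipocyte differentiation, had 2 cKO-specific peaks and 1 cWT-specific peak. One cKO-specific peak (chr1:64052358-64052691) lay within the gene, 68.9 kb after the RefSeq start, with signal 18.9 and authors' p-value 0.899. The other peaks formed a pair of opposite genotype upstream of the gene, inside the long noncoding RNA gene Gm35880. The cWT-specific peak of the pair (chr1:64193020-64193465) had signal 14.0 and p-value 0.674, and the cKO-specific peak (chr1:64198377-64198880) signal 27.1 and p-value 0.928. They were 4.91 kb apart and lay 71.9 and 77.2 kb before the start. Beyond the limit, 3 more cKO-specific peaks had Klf7 as the nearest coding gene at 168.0 to 196.3 kb, the first with signal 26.6 and p-value 0.310.

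**Figure D2:**
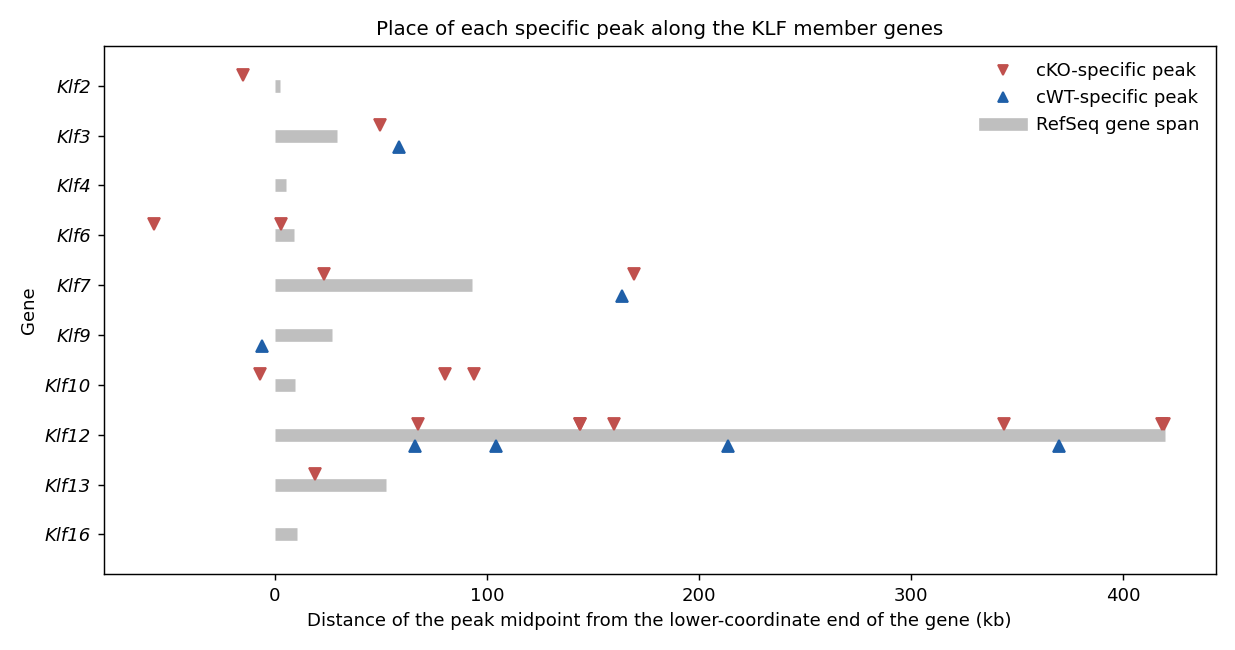
Midpoint of each of the 24 specific peaks, in kb from the lower-coordinate end of its gene, with the RefSeq span of each gene in grey (to scale), cKO-specific peaks above and cWT-specific peaks below the span. The 2 adjoining cKO-specific peaks of Klf12 and the 2 near its upper end overlap as drawn, and 14 of the 24 peaks lie inside a gene.

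Of the genes whose products recruit CtBP, Klf3, a broadly expressed repressor, had 1 peak of each list beyond its downstream end. The cKO-specific peak (chr5:64852733-64853391) was 659 bp wide, the widest of the 24, and lay 20.2 kb from the gene with signal 19.7 and authors' p-value 0.766. The cWT-specific peak (chr5:64861965-64862151) was the narrowest of the 24 at 187 bp, and lay 29.2 kb from the gene with signal 8.50 and p-value 0.958. The 2 peaks were thus near neighbours, 8.57 kb apart, without touching. A second cKO-specific peak before the start (chr5:64795718-64796122), 7.60 kb from Klf3, was 6.45 kb from Gm38457 and was not counted for Klf3.

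Klf12, a repressor first described at the promoter of the AP-2 alpha gene, is the longest of the 10 genes. It spans 419.7 kb (chr14:99866181-100285891), and its 11 peaks, 7 cKO-specific and 4 cWT-specific, all lay inside it. Of the 21883 coding genes, 17, Klf12 included, had at least 11 peaks. The stretch counted for Klf12 was longer than that of 98.9% of coding genes, and made up 32.8% of the stretch of the 10 KLF genes while holding 45.8% of their peaks. Per 100 kb Klf12 held 1.13 cKO-specific and 0.645 cWT-specific peaks, against 0.437 and 0.176 over all coding genes. Klf2, Klf10 and Klf3 exceeded this cKO density, with 2.32, 2.22 and 1.32 in shorter stretches.

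The Klf12 peak with the highest signal was at the upstream end of the gene. Its midpoint lay 476 bp from that end (chr14:100285164-100285666, 503 bp, the peak of the printed stretch), with signal 21.6 and authors' p-value 0.758. It was the only one of the 24 KLF peaks within 1000 bp of an end of its gene. A weaker cKO-specific peak (chr14:100284363-100284560) lay 603 bp further into the gene, with signal 8.97 and p-value 0.929. The lowest authors' p-value at Klf12, 0.723, was that of another cKO-specific peak (chr14:100209984-100210185), with signal 13.3.

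The RefSeq promoter window of Klf12 lies far inside the span, with its start at 100149796, and the closest listed peaks were 60.2 kb (cKO) and 69.8 kb (cWT) from it. That window does not cover the upstream end of the span, near which the cKO-specific peak of the printed stretch lay. Peak names carry a number that rises along each chromosome, and this number was taken as its rank in the complete call set of that genotype. By this reading no other peak was called in cKO between 100026276 and 100209984, the stretch that holds this start, whereas 2 unlisted peaks were called in cWT between 100080009 and 100235883. The unlisted peaks themselves were not analysed here.

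Within the gene body the Klf12 peaks of the 2 lists were interleaved, the cKO-specific ones over 352.3 kb and the cWT-specific ones over 304.1 kb. From the first to the last cKO-specific peak 7 of 10 consecutive numbers were listed, and from the first to the last cWT-specific peak 4 of 6. The overall shares were 25.8% of the cKO numbers and 12.1% of the cWT numbers, but both ends of such a run are listed by construction. The closest pair of opposite genotype was the cWT-specific peak at chr14:99931972-99932197, with signal 18.99, and the cKO-specific peak at chr14:99933360-99933818, with signal 10.9, which were 1.16 kb apart. Another pair, both cKO-specific, adjoined without a gap (chr14:100009835-100010022 and chr14:100010023-100010269) with the same signal of 14.9, so the 7 may stand for 6 regions. The other cWT-specific peaks had signals of 9.61 to 13.8 and the other cKO-specific peaks 11.1 and 13.3.

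**Figure D3:**
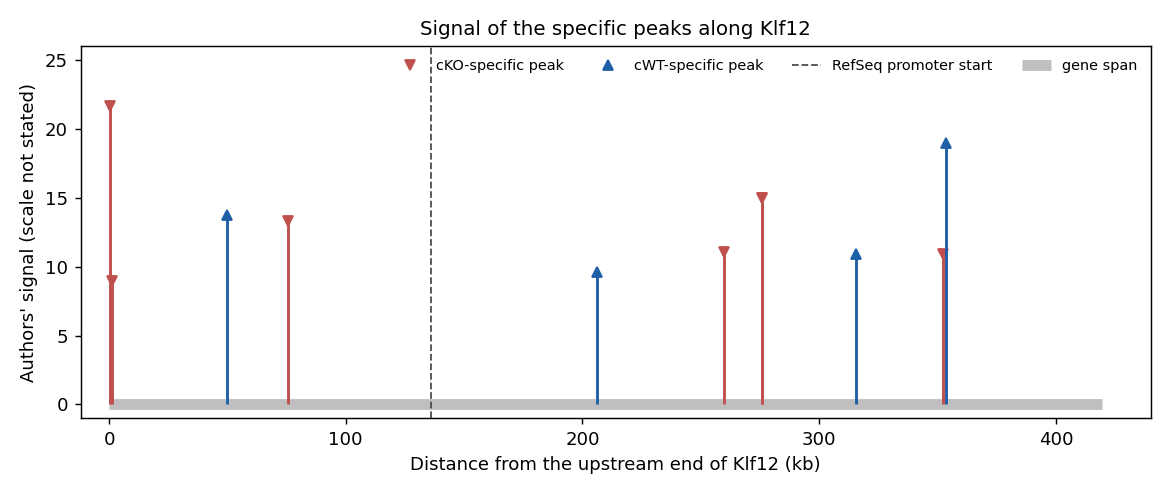
The authors' signal of each specific peak along Klf12, against its distance in kb from the upstream end of the gene (triangles down and red, cKO-specific; triangles up and blue, cWT-specific; dashed line, the start in the RefSeq promoter window; grey bar, the gene). The highest signal, 21.6, is at the upstream end, and no listed peak stands near the dashed line.

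Among the genes whose products recruit Sin3a, Klf9, which glucocorticoid and thyroid hormone induce in brain, had 1 cWT-specific peak and no cKO-specific peak within the rule. The peak (chr19:23134879-23135377, 499 bp) lay 6.10 kb before the start, inside the noncoding RNA gene 2410080I02Rik. Its signal of 31.7 was the highest of the 24 KLF peaks, and only 95 of the 3490 cWT-specific peaks had a higher one. The authors' p-value was 0.991, the highest of the cWT list and shared by 6 peaks. Signal and p-value therefore ranked this peak at opposite ends of its list. A cKO-specific peak 78.6 kb from Klf9 lay nearer to Smc5, and a cWT-specific peak 83.6 kb away lay nearer to Trpm3.

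Klf10, a target of TGF-beta signalling, had 3 cKO-specific peaks and no cWT-specific peak. The closest (chr15:38284153-38284388) lay 7.19 kb from the gene, with signal 16.3 and authors' p-value 0.887. The others lay beyond the opposite end, at 71.1 kb (chr15:38371661-38371996, signal 15.1, p-value 0.805) and 84.5 kb (chr15:38385129-38385351, signal 23.2, p-value 0.683). The last of these was 319 bp from an end of the noncoding RNA gene Gm41307, so a noncoding neighbour was much closer to it than Klf10. The same pair of counts was held by 1.08% of coding genes, 236 in all. The stretch counted for Klf10 was 135.0 kb, longer than that of 80.2% of coding genes. The nearest cWT-specific peak was 231.2 kb from Klf10.

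Klf13, an activator of the chemokine gene Ccl5 in T cells, had 1 cKO-specific peak (chr7:63905210-63905520) inside the gene, 33.6 kb after the start, with signal 15.5 and authors' p-value 0.837. The coding gene with the nearest end was E030018B13Rik, 11.5 kb away and itself within the span of Klf13, so this peak counted for both. The cWT list had no peak within 2416 kb of Klf13. Klf16, also known as a dopamine receptor regulating factor, had no peak of either list. Its counted stretch was the shortest of the 10 at 14.5 kb, and the nearest peaks were 56.6 kb (cWT) and 120.6 kb (cKO) away. Between the listed peaks that flank Klf16, 18 unlisted peaks were numbered in cKO over 305.6 kb and 18 in cWT over 263.9 kb. An absence from these lists therefore does not show closed chromatin at Klf16.

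The same reading was applied to the rest of the 10 KLF genes. Around the Klf4 start, 7 unlisted peaks were numbered in cKO over 298.5 kb and 14 in cWT over 1196 kb. Around the Klf6 start 3 were numbered in cKO over 59.3 kb, around the Klf3 start 4 over 56.6 kb, and around the body of Klf10 3 over 87.3 kb. For cWT the flanking peaks were farther apart at Klf6, Klf3 and Klf10, with 15 numbers over 1042 kb at Klf6, 13 over 485.8 kb at Klf3 and 21 over 945.5 kb at Klf10. Around the Klf2 start 22 were numbered in cKO over 2697 kb and 19 in cWT over 666.2 kb, and around the Klf7 start 3 over 145.7 kb and 4 over 429.3 kb. Around the Klf9 start there were 6 over 1461 kb in cKO and 19 over 1831 kb in cWT, and around the Klf13 start 12 over 312.0 kb and 49 over 7496 kb. Where in these stretches the unlisted peaks lie is not given by the numbers. Adjoining peaks carry separate numbers, as the adjoining cKO-specific pair in Klf12 shows. The counts of numbers here and above may therefore exceed the counts of separate regions.

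No cKO-specific KLF peak overlapped a cWT-specific one by even 1 bp, but lists of genotype-specific peaks may exclude overlap by construction. Of the 24 peaks, 14 lay inside a KLF gene (10 cKO-specific and 4 cWT-specific), among them the 11 of Klf12, and 10 lay outside. By distance from the nearest end of the gene, 1 lay within 1000 bp, 4 between 1 and 10 kb, and 19 beyond 10 kb, of which 13 were beyond 50 kb. The median distance was 56.8 kb for cKO-specific and 65.9 kb for cWT-specific peaks. The longest distance was 206.1 kb, for a cWT-specific peak inside Klf12. These places and distances were not compared with those of all listed peaks.

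The authors' values for the KLF peaks spread over most of the range of ranks in each list. In cKO the signals ran from 4.49 to 27.1 with a median of 15.1, against a list median of 16.5, and 6 of 17 were above it. In cWT they ran from 8.50 to 31.7 with a median of 13.8, against a list median of 13.7, and 4 of 7 were above it. Widths had medians of 311 bp in cKO and 358 bp in cWT, with list medians of 314 and 322 bp, so the KLF peaks were of ordinary width. The score, which rises as the p-value falls, was above the list median for 7 of 17 cKO-specific and 1 of 7 cWT-specific peaks. A p-value up to 0.5 was given to 1 of the 24 KLF peaks, the outer Klf6 peak, and in the lists to 12.1% of cKO-specific and 6.16% of cWT-specific peaks. Adjusted p-values of the 24 peaks ran from 0.979 to 0.991, and 0 of them were among the peaks that the authors named primary rather than secondary, a name carried by 2.82% of the cKO list and 1.38% of the cWT list. What the authors' p-value tests is not stated in the sources used here.

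**Figure D4:**
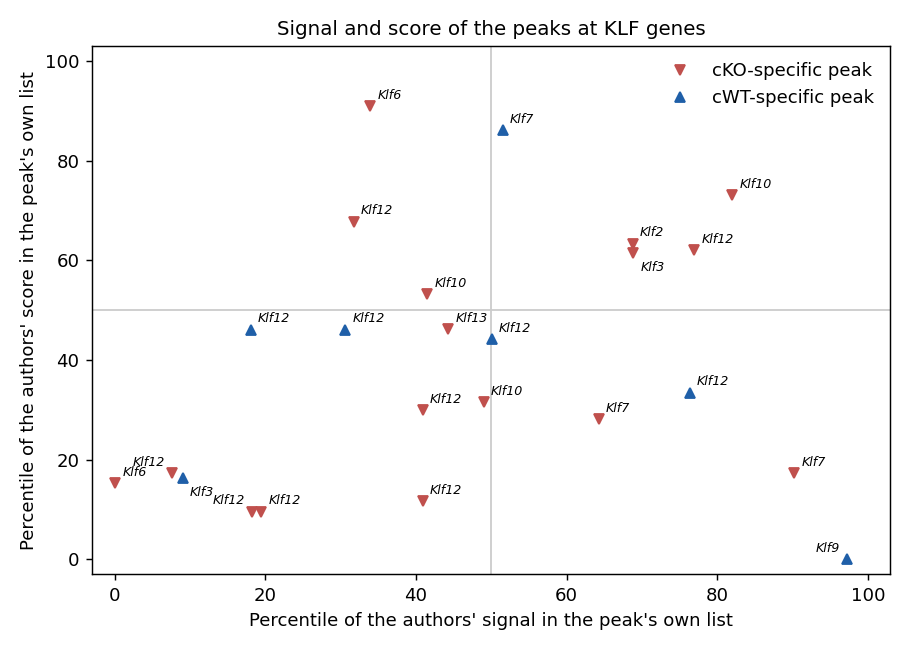
Percentile of the authors' signal (x axis) and of the authors' score (y axis) of each of the 24 KLF peaks within its own list, with grey lines at the median of each. The outer Klf6 peak has the highest score percentile, 90.9, and the Klf9 peak joins the highest signal percentile, 97.3, to the lowest score percentile, 0.100.

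Among the other KLF genes, 1 of 7 had a cKO-specific peak and 2 of 7 a cWT-specific peak, beside 23.8% and 12.3% of all coding genes. Their counted stretch had a median of 81.0 kb, against 153.9 kb at the 10 KLF genes. Klf14 had 2 cKO-specific peaks, 52.7 and 57.8 kb from the gene (signals 10.6 and 18.9). Klf15, a glucocorticoid-induced metabolic regulator, had 2 cWT-specific peaks inside the gene (chr6:90463478-90463802, signal 8.60, and chr6:90477136-90477489, signal 17.5). Klf8, a CtBP-recruiting relative of Klf3 and Klf12, had 1 cWT-specific peak inside the gene (chrX:153359955-153360432, signal 29.4). Klf1, Klf5, Klf11 and Klf17 had none.

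The Sp genes, whose products have closely related DNA-binding zinc fingers, had cKO-specific peaks at 4 and cWT-specific peaks at 2 of 9 genes. Their counted stretch had a median of 49.6 kb. Sp4 had 2 cKO-specific peaks inside the gene, Sp2 and Sp9 had 1 cKO-specific peak each, and Sp6 had 1 cWT-specific peak. Sp3 had 1 of each list, at chr2:73003128-73003356 (cKO, signal 15.0) and chr2:73004437-73004784 (cWT, signal 18.9). Over all 26 KLF and Sp genes, 12 had a cKO-specific peak, 8 a cWT-specific peak and 10 neither. The matching shares over all coding genes were 23.8%, 12.3% and 70.6%. Whether the 10 KLF genes differ from their relatives was not tested.

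Genes that act with the KLFs carried peaks of both lists, and their counts stand beside the shares of 23.8% (cKO) and 12.3% (cWT) over all coding genes. The stretch counted per gene also differed, with medians of 107.9 kb for cofactors, 215.1 kb for upstream regulators, 131.5 kb for turnover genes and 63.3 kb for targets, against 49.6 kb over all coding genes. Of 10 cofactor genes, 4 had a cKO-specific and 4 a cWT-specific peak, each with 2 or fewer in a list. Of 11 upstream regulators, 7 had a cKO-specific peak and 2 a cWT-specific peak. Mef2c, whose family drives Klf2 and Klf4 downstream of the kinase encoded by Mapk7, had 3 in each list within a stretch of 363.1 kb. Of 4 genes of KLF protein turnover, 2 had a cKO-specific peak and 1 a cWT-specific peak. The ubiquitin ligase component gene Fbxw7 had 4 cKO-specific and 0 cWT-specific peaks, and the ligase gene Smurf1 2 and 1.

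Among 10 genes reported as KLF targets, 7 had a cKO-specific and 4 a cWT-specific peak, beside 23.8% and 12.3% of all coding genes. These lists were not tested against other genes. S1pr1, the sphingosine-1-phosphate receptor gene that Klf2 activates in T cells, had 2 cKO-specific and 3 cWT-specific peaks. Cdkn1a, the cell cycle inhibitor gene that Klf4 and Klf6 activate, had 3 and 1, the cyclin gene Ccnd1 3 and 2, and the thrombomodulin gene Thbd 2 and 1. Over these 35 genes there were 37 cKO-specific and 16 cWT-specific counts, and 13 genes had neither.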

How the data were processed

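The 6 ATAC-seq libraries were grouped by their titles, 3 cKO and 3 cWT. The authors deposited 2 headerless peak lists, 1 per genotype, with no values per library. Their columns were read from layout and values as a score, a signal of unstated scale, and p-values before and after adjustment, all deposited by the authors. The tools named, per the submitters' processing notes, are HOMER 4.11, MACS2 2.2.7.1 and Bowtie2 2.4.4, with GRCm38 and mm10. The way replicates were combined and specific peaks chosen was not given in the sources used here.

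Peaks were assigned with RefSeq spans (GRCm38.p6, 21883 protein-coding genes on chromosomes 1 to 19, X and Y), to the gene with the nearest end within 100 kb and to each gene that contains the midpoint. Genes with at least 5 peaks were tested by an exact binomial test with Benjamini-Hochberg adjustment, tried on simulated data first. The KLF genes and the other gene lists were chosen with earlier results of these data known. All 10 KLF genes are named, with other KLF and Sp genes that had a peak and pathway genes with at least 3. The miR-137 seed search, the peaks just outside the limit and the reading of peak numbers were added after seeing the data. Promoter windows came from RefSeq. Alternatives changed the limit, gene set, merging, score and p-value. Python 3.11.15, numpy 2.4.6, pandas 2.3.3, scipy 1.17.1 and matplotlib 3.10.9 were used.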

Additional observations from a re-analysis of the deposited data

How the results depend on the processing

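The cKO share at KLF genes stayed inside its interval with a 10 kb limit, all annotated genes, merging, exclusion of the Klf13 peak, or without Klf12 (chosen after seeing the data). It was 87.5% among peaks at or above their list's median score and 100% at p-values up to 0.5, where few peaks remain. Because the score rises as the p-value falls, the score and p-value settings are cuts on the same ranking. The cKO-specific count of 17 became 11 with a 10 kb limit, 11 with all annotated genes, 7 by score, 1 by p-value and 10 without Klf12. The cWT-specific count of 7 became 4 with all annotated genes, 1 by score, 0 by p-value and 3 without Klf12. KLF genes with a cKO-specific peak fell from 7 to 6 without the Klf13 peak, 5 with a 10 kb limit and 5 with all annotated genes. By score 5 remained and by p-value 1. KLF genes with a cWT-specific peak went from 4 to 2 with a 10 kb limit, 1 with all annotated genes, 1 by score and 0 by p-value. Shares over all coding genes under these settings are not given here. Balance tests called 0 genes under every alternative run, a minimum of 3 peaks included. With so few peaks per gene they could seldom call one, so this sameness is no support for a shared balance. No overlap appeared at 1 or 50 bp, and with the closest pair 1.16 kb apart the change of minimum could not matter. No paired analysis was possible because neither list has a value for any single library, and for the same reason no replicate could be left out. Depth is unknown, so a longer list in 1 genotype cannot be told apart from deeper libraries.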
